A study of Mus musculus with 6 samples.

Results

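The scavenger receptors are cell surface, endosomal and secreted proteins with which macrophages bind modified lipoproteins, fatty acids, bacteria, dying cells and haemoglobin. The 9 genes described here are Msr1, Marco, Cd36, Scarb1, Cd68, Olr1, Stab1, Cd163 and Cd5l, chosen by gene symbol from the 52459 symbols of the deposited count table. All 9 were present, and all 9 were among the 15380 genes tested. RNA was sequenced from 6 libraries of bone marrow derived macrophages of C57BL/6 mice, grown with the myeloid growth factor GM-CSF. In 3 libraries the cultures had received piceatannol overnight from day 7 of culture, and in 3 control libraries they had received the vehicle. Piceatannol is a plant stilbene related to resveratrol that inhibits the kinase Syk. The sources used here give no dose, name no vehicle, and give neither age nor sex of the mice. Whether the libraries of a group come from separate mice or cultures is not stated, and the p-values thus measure only the spread among these libraries, which may be technical.

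The receptors are grouped in classes by protein structure and not by descent. Class A receptors (Msr1, Marco) are collagen-like trimers that bind acetylated lipoproteins and bacteria, and class B receptors (Cd36, Scarb1) are hairpin proteins spanning the membrane at both ends that move fatty acids, oxidised lipoproteins and cholesterol esters. Cd68 is a glycosylated protein of late endosomes, Olr1 a C-type lectin for oxidised LDL, Stab1 a large endocytic receptor, and Cd163 the receptor for the haemoglobin-haptoglobin complex. Cd5l is a secreted protein with scavenger receptor cysteine-rich domains, which Cd163, Marco and one form of Msr1 also carry.

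The libraries held between 33276569 and 49283203 counts in the piceatannol group and between 43586270 and 58697084 in the control group. The macrophage label was checked on 9 marker genes, all of which were tested. The lysozyme gene Lyz2 averaged 10224 CPM (counts scaled to a common library total) in piceatannol and 14876 CPM in control libraries, and the receptor gene Csf1r 657 and 1679 CPM. Of these 9 markers 8 were lower with piceatannol and 1, Cd14, was higher, and their summed level ran from 12442 to 13889 CPM in piceatannol and from 20060 to 24056 CPM in control libraries. Markers of other cell types were detected too, and among those at the filter's floor of 0.215 CPM in every library 7 of 9 dendritic cell, 3 of 3 neutrophil and 4 of 5 stromal markers were lower with piceatannol, against 38.3% of all tested genes. The other 4 tested neutrophil markers fell short of the floor in piceatannol libraries, as did every tested lymphocyte and mast cell marker. Stromal markers summed to between 506 and 567 CPM in piceatannol and between 2183 and 2437 CPM in control libraries. For dendritic cell markers the sums were 830 to 1032 CPM in piceatannol and 1643 to 1784 CPM in control libraries. Neutrophil markers summed to between 34.0 and 41.1 CPM in piceatannol and between 254 and 600 CPM in control libraries. The 4 adipocyte markers summed to at most 0.212 CPM in piceatannol and 0.0846 CPM in control libraries. Mitochondrial genes took 2.15% ± 0.431 of the counts in piceatannol and 0.820% ± 0.0447 in control libraries (SD, n = 3 each). The part of these shifts in the receptor results was not tested. The libraries are bulk samples, so fewer cells of a type and less RNA per cell cannot be told apart.

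Piceatannol split the receptors. Cd5l, Cd36, Marco, Olr1 and Cd68 rose, and Stab1, Cd163, Msr1 and Scarb1 fell, each past an adjusted p of 0.05 (quasi-likelihood test of edgeR, Benjamini-Hochberg adjusted over the 15380 genes). Among all tested genes 77.0% passed that threshold, 38.8% as higher and 38.3% as lower with piceatannol, so that passing it says little about a single gene in this comparison. Cd163 reached the filter on low counts through the control libraries alone and so had to differ, and of the other 8 receptors 5 rose and 3 fell. For these 8 the 3 values of each group lay wholly apart, as they did for 79.0% of all tested genes. Of the 8, 7 changed at least 2-fold, against 34.0% of all tested genes. The median size of the log2 fold change, without its sign, was 1.78 over the 8 receptors and 0.68 over all tested genes, and the signed median was 1.17 over the 8 and 0.01 over all. The receptors and the gene lists below were chosen with earlier results of these data known. Their distance from all tested genes is thus a description and no test of the family.

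**Figure D1:**
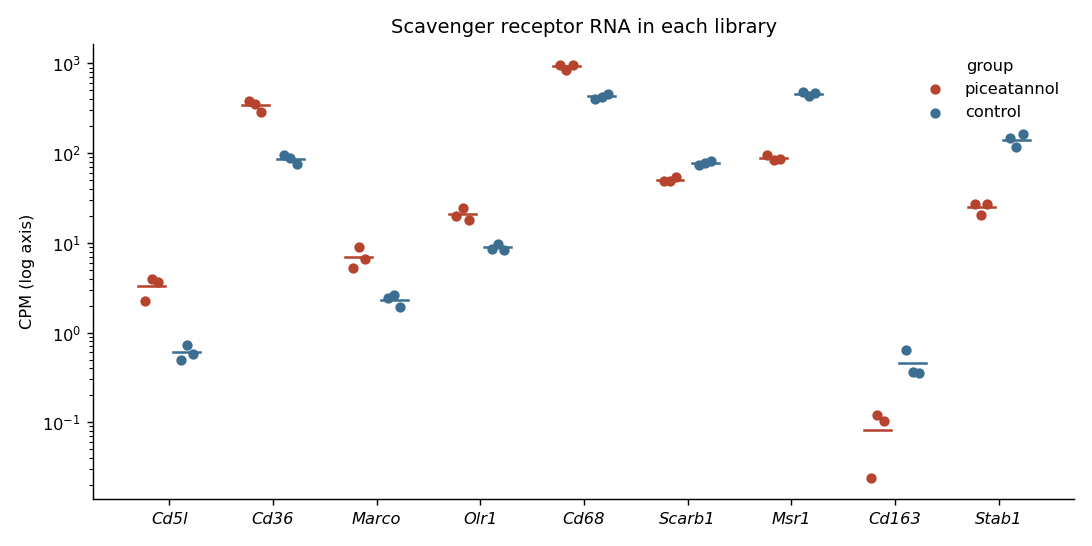
RNA level of the 9 receptors in CPM (vertical log axis), with 1 point per library and a line at the mean of 3 libraries, piceatannol left of control. The groups are apart for every receptor, from 3.28 against 0.599 CPM for Cd5l at the left to 24.8 against 142 CPM for Stab1 at the right. They are also apart for 79.0% of all tested genes, and Cd163 had to differ because of the filter.

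The class A receptors moved in opposite directions. Msr1, which takes up acetylated and oxidised LDL (chromosome 8, 39581685 to 39642673, minus strand), had 96.1, 84.2 and 85.3 CPM in the piceatannol libraries and 476, 433 and 470 CPM in the control libraries. Its lowest control value was more than 4 times its highest piceatannol value, a gap far wider than the spread within either group. The log2 fold change was -2.38 ± 0.07 (SE; edgeR quasi-likelihood adjusted p = 4.74e-17), a 5.19-fold fall. Marco, a receptor for bacteria and particles known from alveolar and spleen macrophages (chromosome 1, 120474538 to 120505024, minus strand), had 5.18, 8.99 and 6.68 CPM with piceatannol and 2.40, 2.60 and 1.93 CPM in control. The groups did not overlap, but the piceatannol libraries were unequal, with a coefficient of variation of 27.6% against 14.9% in control. Marco rose 3-fold (log2 fold change 1.59 ± 0.19, SE; edgeR quasi-likelihood adjusted p = 4.69e-07). On the per-length FPKM scale (fragments scaled by gene length and library size) the ratio of Marco to Msr1 was 0.177, 0.352 and 0.258 in the piceatannol libraries and 0.0167, 0.0197 and 0.0135 in the control libraries.

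The class B receptors also parted. Cd36, which binds oxidised LDL and imports long-chain fatty acids (chromosome 5, 17781690 to 17888801, minus strand), had 381, 355 and 285 CPM in the piceatannol libraries and 95.4, 88.9 and 76.3 CPM in the control libraries. Replicate 3 was the lowest of its group in both conditions. The log2 fold change was 1.97 ± 0.12 (SE; edgeR quasi-likelihood adjusted p = 3.55e-07), a 3.92-fold rise. Taken between libraries with the same replicate number, the folds were 3.993, 3.997 and 3.733, closer together than the levels themselves. Scarb1, the HDL receptor that takes up cholesterol esters (chromosome 5, 125277087 to 125341094, minus strand), had 48.8, 48.5 and 53.8 CPM with piceatannol and 74.6, 78.1 and 82.5 CPM in control. This was the smallest change of the 9 and still left the groups apart. Scarb1 fell 1.56-fold (log2 fold change -0.64 ± 0.07, SE; edgeR quasi-likelihood adjusted p = 2.85e-08). Per length, the ratio of Cd36 to Scarb1 in FPKM was 18.5, 17.3 and 12.5 in the piceatannol libraries and 3.03, 2.69 and 2.19 in the control libraries.

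Both class B genes are also active in endothelium, and Cd36 in platelets and fat cells. Endothelial markers summed to between 414 and 493 CPM in piceatannol and between 115 and 127 CPM in control libraries. Of the 5 tested, 3 were higher with piceatannol (Kdr, Vwf and Cdh5), against 38.8% of all tested genes. Vwf averaged 368 CPM in piceatannol and 86.2 CPM in control, Kdr 73.7 CPM in piceatannol and 23.5 CPM in control, and Cdh5 0.769 CPM in piceatannol and 0.423 CPM in control. Pecam1, with 10.8 CPM in piceatannol and 12.1 CPM in control, and Tie1 did not pass, and Tie1, Tek and Emcn each averaged under 1 CPM in both groups. Of the 2 platelet markers tested, Pf4 averaged 271 CPM in piceatannol and 259 CPM in control libraries and did not pass, and Itga2b was higher, with 8.47 CPM in piceatannol and 5.24 CPM in control. The part of these cell types in the rise of Cd36 was not tested.

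Cd68 and Olr1, of classes D and E, both rose about 2-fold. Cd68, a late endosomal protein used as a pan-macrophage marker (chromosome 11, 69664213 to 69666153, minus strand), had 956, 851 and 969 CPM in the piceatannol libraries and 399, 424 and 461 CPM in the control libraries. The log2 fold change was 1.11 ± 0.07 (SE; edgeR quasi-likelihood adjusted p = 1.42e-11), the opposite direction to 8 of the 9 macrophage markers above. Olr1, which encodes the lectin-like receptor for oxidised LDL (chromosome 6, 129485244 to 129507165, minus strand), had 19.9, 24.5 and 18.1 CPM with piceatannol and 8.44, 9.77 and 8.41 CPM in control. Replicate 2 was the highest of its group in both conditions. The log2 fold change was 1.23 ± 0.11 (SE; edgeR quasi-likelihood adjusted p = 5.32e-09).

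The stretches before the Cd68 and Olr1 starts are shown because both genes rose and, of the 7 receptors with a RefSeq start window, they alone hold the AP-1 site TGANTCA. AP-1 is the family of JUN and FOS transcription factors. Each line gives the 250 bases before the RefSeq start on GRCm38.p6, 5′ to 3′ on the minus strand, at chr11:69666171-69666420 for Cd68 and chr6:129507166-129507415 for Olr1, with motif matches in capitals.
Cd68: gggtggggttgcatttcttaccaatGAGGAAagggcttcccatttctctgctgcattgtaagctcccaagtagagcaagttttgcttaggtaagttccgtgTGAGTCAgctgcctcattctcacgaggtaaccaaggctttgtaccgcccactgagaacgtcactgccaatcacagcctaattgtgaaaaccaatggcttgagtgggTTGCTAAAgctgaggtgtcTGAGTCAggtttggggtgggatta
Olr1: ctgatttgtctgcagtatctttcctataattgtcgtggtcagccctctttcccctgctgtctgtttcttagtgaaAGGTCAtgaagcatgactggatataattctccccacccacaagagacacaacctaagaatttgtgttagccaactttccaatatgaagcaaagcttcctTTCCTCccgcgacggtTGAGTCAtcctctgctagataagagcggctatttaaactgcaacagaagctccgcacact
In Cd68 the capitals mark, in order, a core site of PU.1 (GAGGAA), an AP-1 site, a C/EBP-type site (TTGCNNAA) and a further AP-1 site, beginning 225, 149, 43 and 24 bases before the start. In Olr1 they mark a nuclear receptor core site (AGGTCA), a PU.1 core on the opposite strand and an AP-1 site, beginning 175, 76 and 60 bases before the start.

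Stab1 had the largest fitted fall of the 9, close to those of Cd163 and Msr1, and Cd163 had the lowest level. Stab1 encodes stabilin-1, which clears acetylated LDL, secreted matrix proteins and dying cells (chromosome 14, 31139013 to 31168641, minus strand). It had 27.0, 20.6 and 26.8 CPM in the piceatannol libraries and 146, 118 and 161 CPM in the control libraries. Replicate 2 was the lowest of its group in both conditions, and the groups were far apart. The log2 fold change was -2.51 ± 0.15 (SE; edgeR quasi-likelihood adjusted p = 1.31e-06), a 5.69-fold fall. Over 112 exonic bases Stab1 overlaps Nt5dc2 on the opposite strand, and with no stated strand setting their reads cannot be told apart there. Nt5dc2 averaged 40.7 CPM in piceatannol and 68.0 CPM in control libraries. The window before the Stab1 start, at chr14:31168642-31168891 on the minus strand of GRCm38.p6, is shown as that of a receptor that fell. It holds 1 match, a PU.1 core in capitals, beginning 30 bases before the start.
Stab1: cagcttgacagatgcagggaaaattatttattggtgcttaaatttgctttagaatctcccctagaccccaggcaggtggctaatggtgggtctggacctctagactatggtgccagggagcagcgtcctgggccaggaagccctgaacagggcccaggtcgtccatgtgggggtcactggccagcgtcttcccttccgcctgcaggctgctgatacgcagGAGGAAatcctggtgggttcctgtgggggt

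Cd163 (chromosome 6, 124304656 to 124330527, plus strand) had 1, 4 and 5 counts in the piceatannol libraries and 34, 16 and 21 counts in the control libraries. Every library was thus near the limit of detection, and no piceatannol library reached the filter's floor of 0.215 CPM. Summed over the libraries the control level was 5.65 times the piceatannol level, with a 95% exact binomial interval of 2.90 to 12.3 that covers counting error only. The fitted log2 fold change was -2.46 ± 0.54 (SE; edgeR quasi-likelihood adjusted p = 0.000401), and on the log2(FPKM + 1) scale it was -0.10. Cd5l, also called AIM, which keeps macrophages alive and binds lipids and bacteria (chromosome 3, 87357881 to 87371073, plus strand), had 95, 129 and 179 counts with piceatannol and 26, 32 and 34 counts in control. Scaled, these were 2.26, 3.90 and 3.67 CPM with piceatannol and 0.492, 0.729 and 0.575 CPM in control. Cd5l thus rose the most of the 9 from one of the lowest levels, with a log2 fold change of 2.45 ± 0.26 (SE; edgeR quasi-likelihood adjusted p = 2.82e-08). On the log2(FPKM + 1) scale, which understates low genes, the difference was 0.99 for Cd5l and 1.03 for Marco.

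The change of the class A and class B receptors altered the order of levels, compared here per length as deposited FPKM. In piceatannol libraries the order of means was Cd68 at 725, Cd36 at 93.3, Msr1 at 13.7, Scarb1 at 5.84, Olr1 at 5.73, Marco at 3.56, Stab1 at 2.37 and Cd5l at 1.59 FPKM. In control libraries it was Cd68 at 340, Msr1 at 72.5, Cd36 at 24.2, Stab1 at 13.8, Scarb1 at 9.23, Olr1 at 2.49, Marco at 1.20 and Cd5l at 0.293 FPKM. Cd163 was last in both, listed at 0.00, 0.02 and 0.02 FPKM with piceatannol and at 0.12, 0.07 and 0.06 FPKM in control. Neighbours in each order had ranges that did not overlap, except Scarb1 and Olr1 in piceatannol libraries, which ran from 5.64 to 6.22 and from 4.97 to 6.77 FPKM. Cd36 thus stood above Msr1 in every piceatannol library, by 7.00, 7.45 and 5.90 times in FPKM, while in the control libraries the Cd36 to Msr1 ratio was 0.354, 0.362 and 0.287. Stab1 stood below Scarb1, Olr1 and Marco with piceatannol and above all of them in control.

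**Figure D2:**
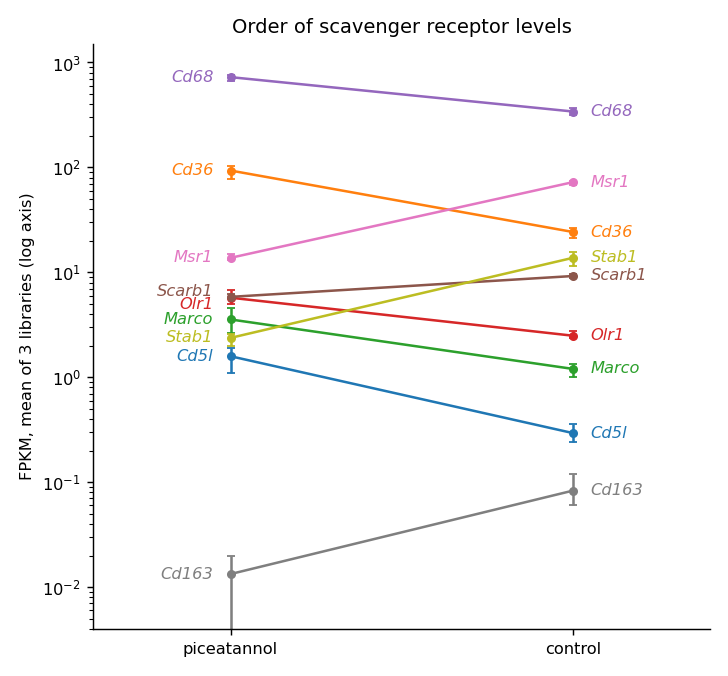
Mean FPKM of the 9 receptors (vertical log axis) over 3 piceatannol libraries at the left and 3 control libraries at the right, with bars from the lowest to the highest library. The Cd163 bar runs off the axis because 1 piceatannol library is listed at 0. The lines of Cd36 and Msr1 cross, with Cd36 at 93.3 FPKM in piceatannol and 24.2 FPKM in control, and Msr1 at 13.7 and 72.5 FPKM.

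Cd68 carried the larger summed level of the 9 genes with piceatannol. Together they summed to 884, 802 and 867 FPKM in the piceatannol libraries and 445, 457 and 491 FPKM in the control libraries. Without Cd68 the other 8 summed to 137, 132 and 110 FPKM in the piceatannol libraries and 128, 119 and 124 FPKM in the control libraries, and these ranges overlapped. In CPM, not scaled by length, the 9 summed to between 1398 and 1536 in piceatannol and between 1155 and 1263 in control libraries. Cd68 made up 85.1% ± 1.94 of the FPKM sum of the 9 in piceatannol and 73.3% ± 1.86 in control libraries (SD, n = 3 each). Cd36 took 11.0% ± 1.75 in piceatannol and 5.24% ± 0.836 in control, and Msr1 took 1.62% ± 0.0827 in piceatannol and 15.6% ± 1.02 in control. Stab1 made up 0.278% ± 0.0270 in piceatannol and 2.96% ± 0.384 in control.

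The receptors also differed in how evenly the libraries of a group behaved. The coefficient of variation of CPM with piceatannol was 5.87% for Scarb1, 6.94% for Cd68, 7.43% for Msr1, 14.6% for Cd36 and for Stab1, 15.8% for Olr1, 27.2% for Cd5l, 27.6% for Marco and 62.7% for Cd163. Between same-numbered libraries the piceatannol to control fold of Marco ran from 2.15 to 3.46 and that of Cd5l from 4.58 to 6.37. For Msr1 the corresponding fall was 4.95-fold, 5.15-fold and 5.51-fold, and for Stab1 5.41-fold, 5.72-fold and 6.01-fold.

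A further 17 genes of the wider scavenger receptor family, many of other classes, were examined. Of these 12 had enough counts to be tested, and 11 of the 12 reached the filter's floor in every library. Of the 11, 3 rose and 6 fell, against 38.8% higher and 38.3% lower among all tested genes. Scarf2, an EGF-repeat receptor of class F, rose by 1.12 ± 0.10 (SE) on the log2 scale, Lrp1, a large endocytic receptor for lipoproteins and protease complexes, rose by 0.83 ± 0.09, and Scarb2, the lysosomal class B member, rose by 0.28 ± 0.06. Mrc1, the mannose receptor, had the largest fall, with 86.2, 88.1 and 66.0 CPM in piceatannol and 295, 242 and 254 CPM in control libraries (log2 fold change -1.72 ± 0.12, SE). Ager, which binds glycated proteins, fell by 1.14, Scarf1 by 1.02, Scara3 by 0.72, the membrane chemokine Cxcl16 by 0.50 and the hyaluronan receptor Cd44 by 0.27. Megf10 also passed as lower (-1.12), but only its control libraries reached the filter's floor, and with the replicate number as a block its edgeR quasi-likelihood adjusted p was 0.0649. Without any 1 library other than piceatannol replicate 1 it lay between 0.0654 and 0.151. The beta-glucan receptor gene Clec7a (0.07) and the collectin gene Colec12 (0.16) did not pass. Without piceatannol replicate 3 Colec12 did, with an edgeR quasi-likelihood adjusted p of 0.0375. The median log2 fold change of the 12 was -0.38, and over all tested genes it was 0.01. The 12 include Megf10, which had to be lower, so their median is pulled down by the filter. Scara5, Asgr1, Stab2, Cd163l1 and Lrp2 had too few counts to be tested, each averaging under 0.1 CPM in both groups.

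**Figure D3:**
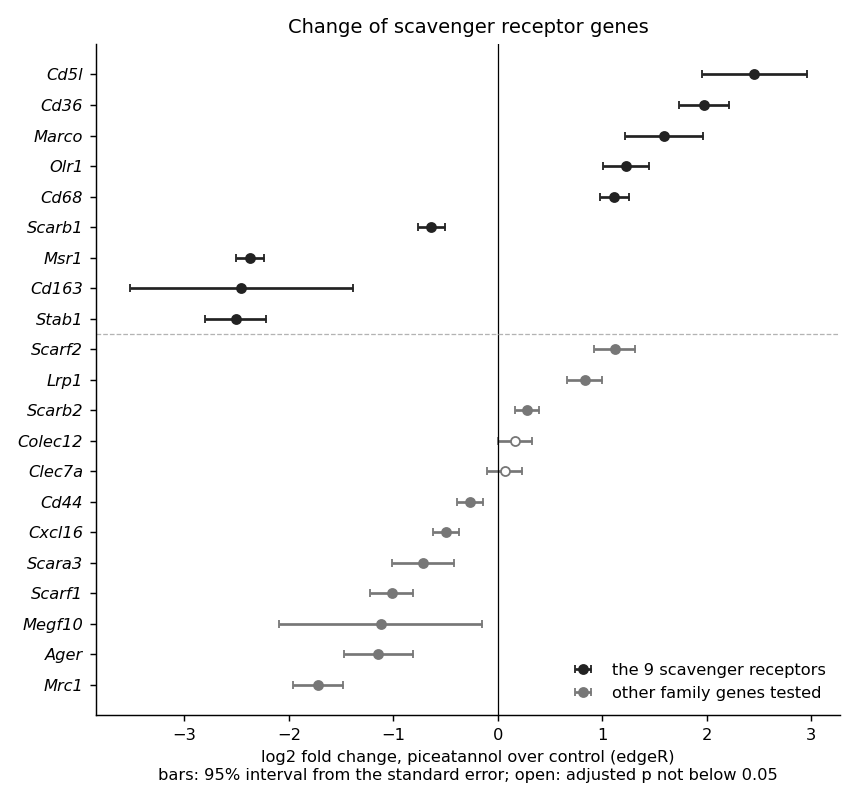
Log2 fold change of piceatannol over control (horizontal axis) for the 9 receptors (black) and the 12 other tested genes of the family (grey), with 95% intervals from the standard error and open circles for genes that did not pass. The receptors run from 2.45 for Cd5l to -2.51 for Stab1, and the other family genes from 1.12 for Scarf2 to -1.72 for Mrc1.

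The genes that handle the lipid cargo mostly rose. Of 16 genes of lipoprotein and cholesterol handling, all tested, 13 rose, against 38.8% of all tested genes, and the median log2 fold change was 0.70. The fatty acid binding protein gene Fabp4 rose by 3.90 (56.7 ± 8.05 CPM in piceatannol and 3.79 ± 0.449 CPM in control, SD, n = 3 each), the lipid droplet coat gene Plin2 by 1.64 and the lysosomal cholesterol exporter gene Npc1 by 1.44. Lpl and Acsl1 did not pass.

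Along the haemoglobin and haem route that begins with Cd163, 7 of 9 genes rose, against 38.8% of all tested genes, and 2 fell, and the median log2 fold change was 1.47. The haem oxygenase gene Hmox1 rose by 5.40, the iron exporter gene Slc40a1 by 3.25 and the biliverdin reductase gene Blvrb by 1.96. The haptoglobin gene Hp, whose product is the Cd163 ligand when bound to haemoglobin, fell by 2.06, with 54.5, 33.7 and 43.4 CPM in piceatannol and 184, 175 and 192 CPM in control libraries, and Blvra fell by 0.43.

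Transcription factors known to act on receptor genes moved both ways. Of 16, 8 were higher and 5 lower, so that 13 passed, a share near the 77.0% of all tested genes, and the median log2 fold change was 0.18. Pparg, whose product activates Cd36 in macrophages, rose by 0.90 from a low level, with 14.9, 13.9 and 11.5 CPM in piceatannol and 6.36, 9.25 and 6.02 CPM in control libraries. Ppard rose by 2.27 and Cebpb by 2.15. Maf fell to 4.66 CPM in piceatannol against 18.6 CPM in control, the sterol regulator gene Srebf2 fell by 1.49 on the log2 scale and Spi1, which encodes PU.1, by 0.98.

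Of 15 co-receptor and adaptor genes 13 reached the filter's floor in every library, and of these 5 rose and 6 fell, near the 38.8% higher and 38.3% lower of all tested genes. The median log2 fold change of the 15, Pdzk1 included, was 0.10. The kinase gene Src rose by 1.28 and the tetraspanin gene Cd81 by 0.77, while the kinase gene Lyn fell by 1.12, Vav1 by 0.91 and the Toll-like receptor gene Tlr2 by 0.83. Pdzk1, encoding the adaptor that stabilises the Scarb1 protein in liver, had 67 counts in all in piceatannol and 5 in control libraries, a ratio of 16.8 with a 95% exact binomial interval of 6.87 to 53.5. It passed the filter through the piceatannol libraries alone and so had to be higher. Control replicate 3 held 4 of the 5 control counts, and without it the fitted log2 fold change was 5.34 in place of 3.96, while on the log2(FPKM + 1) scale it was 0.18. Of 6 genes of receptor shedding 1 rose and 4 fell, against 38.8% higher and 38.3% lower among all tested genes. The inactive rhomboid gene Rhbdf1 rose (1.28). Those that fell included the inhibitor gene Timp3 (-2.38), the membrane protease gene Mmp14 (-0.99) and the sheddase gene Adam10 (-0.24). The median of the 6 was -0.20. Without piceatannol replicate 3 the edgeR quasi-likelihood adjusted p of Adam10 was 0.0539.

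**Figure D4:**
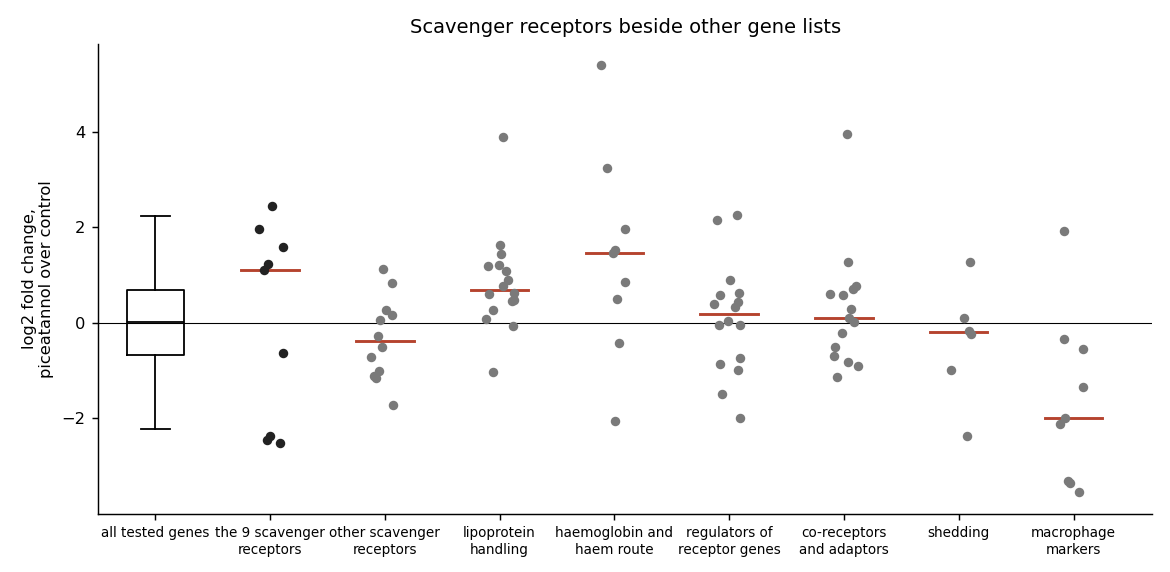
Log2 fold change of piceatannol over control (vertical axis), with 1 point per tested gene in each list, a red line at the list's median, and for all tested genes a box over the quartiles with whiskers at the 5th and 95th percentiles. The 9 receptors, Cd163 included, lie in an upper group that rose and a lower group that fell. Their median is 1.11, that of lipoprotein handling 0.70 and that of macrophage markers -1.98.

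Motifs were searched on both strands in the 250 bases before the start of the 7 receptors with a RefSeq window, Msr1 and Scarb1 having none in the table. The PU.1 core GAGGAA was found in 5 of 7 windows, those of Marco, Cd5l, Olr1, Cd68 and Stab1, and in 23.3% of all 32851 windows of that length. The AP-1 site was found in 2 of 7 and in 6.75% of all, the nuclear receptor core AGGTCA in 2 of 7 (Cd36 and Olr1) and in 14.0% of all, and the C/EBP-type site in 1 of 7 and in 9.56% of all. The antioxidant response element core TGACNNNGC, present in 10.2% of all windows, and TATAAA, present in 12.4%, were found in 0 of 7. A PU.1 core stood in windows of receptors that rose and in that of Stab1, which fell. Cd36 has several annotated starts, and the window searched lies before only one of them.

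**Figure D5:**
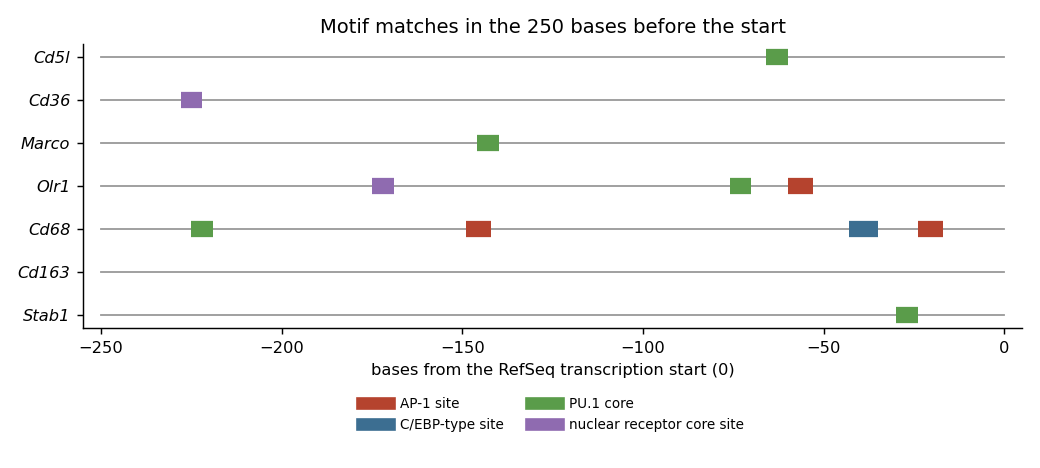
Motif matches in the 250 bases before the RefSeq start (horizontal axis, in bases from the start) of 7 receptors, ordered from the largest rise at the top to the largest fall at the bottom. Cd68 holds 4 matches and Olr1 3, Cd163 holds none, and the remaining windows hold 1 each.

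Within 100 kb of the 9 receptors, 36 other protein-coding genes were tested, and 30 of them reached the filter's floor in every library. None of the 36 lay by Msr1 or Marco. Of these 30, 10 changed in the direction of their receptor and 14 in the opposite one, while 77.0% of all tested genes passed in either direction. The 14 include Pex5, next to Cd163, whose own direction was fixed by the filter. Next to Olr1, in the lectin-like receptor cluster of chromosome 6, 3 of 7 neighbours reached the filter's floor in every library, and all 3 were higher, against 38.8% of all tested genes. These were the lectin genes Clec1b and Clec9a and the autophagy gene Gabarapl1 (1.22), with 381 CPM in piceatannol and 163 CPM in control libraries. Clec12b, Clec1a and Klre1 fell short of the floor in control libraries and Klrd1 in piceatannol libraries, so their calls are not counted here. Clec1b averaged 2.88 CPM in piceatannol and 1.10 CPM in control. Clec9a had 2.35, 1.12 and 2.35 CPM in piceatannol and 1.19, 1.18 and 1.08 CPM in control libraries, so its groups overlapped. Next to Cd68, of 13 neighbours at the floor in every library, 2 were higher and 9 lower, against 38.8% and 38.3% of all tested genes. Fcrls, 94.1 kb from Cd5l, fell by 2.46, and Sema3c, 51.4 kb from Cd36, rose by 3.25. Fcrl1, 5.3 kb from Cd5l, fell by 1.21. The set of neighbours was fixed by distance alone, but those named here were picked after their values were seen.

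The genes most like the receptors with the largest fitted rise and the largest fitted fall were sought over the 6 libraries among 10166 genes. The measure was the root mean square difference of centred log2 CPM. Nearest to Stab1 were Oas1a (0.0919), Glrx (0.0954), Ifi27l2a (0.103) and Slfn8 (0.120), whose log2 fold changes lay between -2.53 (Glrx) and -2.38 (Slfn8). Nearest to Cd5l were Spsb4 (0.217), Tubb4a (0.227), Dnmt3l (0.233) and Pkdcc (0.253), with log2 fold changes between 2.23 (Pkdcc) and 2.48 (Dnmt3l). The distances were wider for Cd5l than for Stab1. With 2 groups such likeness mostly restates a similar fold change.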

How the data were processed

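Counts were analysed in 3 piceatannol and 3 control libraries. The authors deposited a table of raw counts by gene symbol and a table of FPKM values. Per the submitters' processing notes, which give no versions, the tools were bcl2fastq, STAR, featureCounts and DESeq2 and the builds mm10 and GRCm38. For the annotation and the strand setting the sources used here give nothing. The deposited FPKM values follow median-of-ratios size factors to within 0.0177%, and the gene lengths they imply lie within 1% of the GENCODE M21 exon lengths for the 9 receptors once scaled by the median over 1950 genes.

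Genes were filtered with filterByExpr (minimum count 10), which kept between 99.94% and 99.96% of each library's counts, scaled with TMM factors and tested with edgeR 4.0.16 (R 4.3.3) by the quasi-likelihood test, robust and two-sided, with Benjamini-Hochberg adjustment over 15380 genes and a threshold of 0.05. The CPM used in filtering, the floor included, were of unadjusted library totals, while CPM levels used totals adjusted by the TMM factors. The standard error is the log2 fold change divided by the square root of F. The step was tested on simulated data. It recovered 73.1% of 67 genes changed 1.5-fold, 86.6% of 67 changed 2-fold and 93.9% of 66 changed 4-fold. It also called 22 unchanged genes. Far fewer genes changed in the simulation than passed here, so it does not show the error rate in these data. Same-numbered libraries deviated together from their group means (r = 0.264, 0.172 and 0.221 across 10450 genes, which are not independent). A pairing by replicate number thus comes from the data and not from a statement in the labels. The reported fit has no replicate term, so its standard errors and p-values ignore this pairing, and the replicate block is given among the alternatives. With the block the edgeR quasi-likelihood adjusted p was 1.4e-16 for Cd36 and 1.97e-17 for Stab1. No pair of libraries within a group agreed within sampling noise (chi-square per degree of freedom of at least 9.775).

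The receptors and gene lists were chosen with earlier results of these data known. All 9 receptors, the tested family genes, up to 3 genes a direction of each other list by size of change, and the 4 genes nearest in pattern to the extremes are named, and markers and neighbours beyond these were chosen after their values were seen. For 1 gene of the lipoprotein list the result is not reported here. Counts of genes at the filter's floor in every library were added after the values were seen. Alternatives were RLE, upper-quartile and library-total scaling, no filter, a stricter filter (CPM of 5 or more in 3 libraries), DESeq2 1.42.0, limma 3.58.1 on voom values and on log2(FPKM + 1) and log2(FPKM + 0.1), the replicate block, a threshold of 0.01 and leaving out each library. Positions are those of GENCODE M21 and upstream sequences those of RefSeq, both on GRCm38. Intervals on counts cover counting error only, since reads without molecular identifiers are not independent molecules.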

Additional observations from a re-analysis of the deposited data

How the results depend on the processing

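Each receptor kept its direction and stayed past the threshold in all 149 values that 17 alternative fits gave for it. Of these values 14 are for Cd163, which reached the filter through its control libraries alone and so had to differ. Its calls, also within the counts of 9 receptors below, thus add no support. The stricter CPM filter tested only 7 of the 9, all called, and Cd163 was also not tested on filtered FPKM values. On the log2(FPKM + 1) scale the changes of low genes shrank, to 0.99 for Cd5l, 1.03 for Marco and, with no filter, -0.10 for Cd163. Stab1 was at -2.13 on that scale, a smaller fall than that of Msr1, which ran from -2.44 to -2.32 over the alternatives. With the replicate block 12012 genes passed in place of 11846 (and all 9 receptors), and of the 9 receptors and the 45 other genes refitted only Megf10 lost its call (-1.13, edgeR quasi-likelihood adjusted p = 0.0649). Leaving out 1 library at a time gave 9 called receptors each time and between 11487 and 11880 called genes.

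Among these 45 genes, which leave out the markers and neighbours, 741 of 758 values kept direction and call. Clec7a, which did not pass, turned to -0.017 without piceatannol replicate 2 and to -0.0013 without control replicate 3, within a range of -0.017 to 0.16 when 1 library was left out. Megf10 lost its call under 10 alternatives, with adjusted p from 0.0537 to 0.186 over them, among them leaving out any library but piceatannol replicate 1. Adam10 lost its call without piceatannol replicate 3 (adjusted p = 0.0539, edgeR) and on unfiltered FPKM values (0.0577, limma). Colec12 passed without piceatannol replicate 3 (adjusted p = 0.0375, edgeR), with upper-quartile factors (0.0235) and with the stricter filter (0.018). The causes were not tested. Counts were few for Cd163, with 10 in all in the piceatannol libraries, for Megf10 with 16 there, and for Pdzk1 with 5 in the control libraries. Without control replicate 3 the log2 fold change of Pdzk1 was 5.34 in place of 3.96.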
